A study of Homo sapiens with 2 samples.

Results

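The genes of 6 enzymes of gluconeogenesis, PC, PCK1, PCK2, FBP1, FBP2 and G6PC3, were examined for peaks of chromatin immunoprecipitation with an antibody against TCF19, followed by sequencing (ChIP-seq). They were chosen by name from 19974 protein-coding genes on chromosomes 1 to 22 and X. Each gene's window was its RefSeq span on GRCh38 with 5 kb on either side. The cells were Ishikawa, an established human endometrial cancer line, infected with lentivirus for 24 hours and then selected with puromycin. One population carried the control virus (genotype label "negative control") and the other the virus for TCF19 over-expression, and the same antibody (Santa Cruz) was used on both after fixation for 10 minutes. Each population gave 1 library and 1 peak list, so no condition could be tested. Intervals below are at 95% and reflect counting error alone. The promoter that drove TCF19 is not given in the sources used here, and peak lists do not allow the cell type to be checked against expressed markers.

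Gluconeogenesis makes glucose from lactate, amino acids and glycerol and runs mainly in liver and kidney. Most of its steps are glycolytic reactions in reverse, and the enzymes studied here carry out the steps that glycolysis cannot reverse. Pyruvate carboxylase (PC) makes oxaloacetate in mitochondria. The phosphoenolpyruvate carboxykinases PCK1 (cytosolic) and PCK2 (mitochondrial) turn it into phosphoenolpyruvate. The fructose bisphosphatases FBP1 and FBP2 remove a phosphate near the end of the pathway, and glucose-6-phosphatases, of which G6PC3 is a widely expressed form, release glucose. TCF19 carries a PHD finger, a fold that reads histone tails, and has been reported to repress genes of this pathway with the chromatin remodeller CHD4.

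Summit pileup here is the number of reads stacked at the highest point of a peak, recovered from the deposited peak statistics. The control list held 170334 summits and the over-expression list 112212. The genome average was 57.96 reads per 10 kb in control and 51.76 with over-expression, or 0.893 of the control depth. Median summit pileups over the lists were 12 and 13 reads. The span of TCF19 itself held 0 summits in control and 3 with over-expression. The highest of these had 143 reads, against a 95th percentile of 23 over that list. Whether those reads came from the gene itself or from the introduced TCF19 copy was not tested.

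Of the 6 genes, 5 had at least 1 called summit in their window in each library, and these were the same 5. G6PC3 had none in either. Such a summit was present at 85.4% of all protein-coding genes in control and at 87.2% with over-expression, so the count is near the background. The merged windows, in which FBP1 and FBP2 share a stretch, held 16 summits in each library (exact Poisson interval 9.15 to 26.0). That is 0.606 summits per 10 kb of pooled window in both. Taken gene by gene, the median over the 6 genes was 0.757 per 10 kb in control and 0.568 with over-expression. The same median over all genes was 0.746 in control and 0.634 with over-expression. Pileups ran from 9 to 21 reads in control and from 8 to 22 with over-expression, with a median of 14 in each. Of the 16 summits, 12 in control and 13 with over-expression were at or above the median pileup of their list. Because of ties, only 47.0% of all control summits lay below their median of 12 reads. With over-expression 43.3% lay below 13 reads. The map of summits along the genes shows these heights and that G6PC3 was empty.

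**Figure D1:**
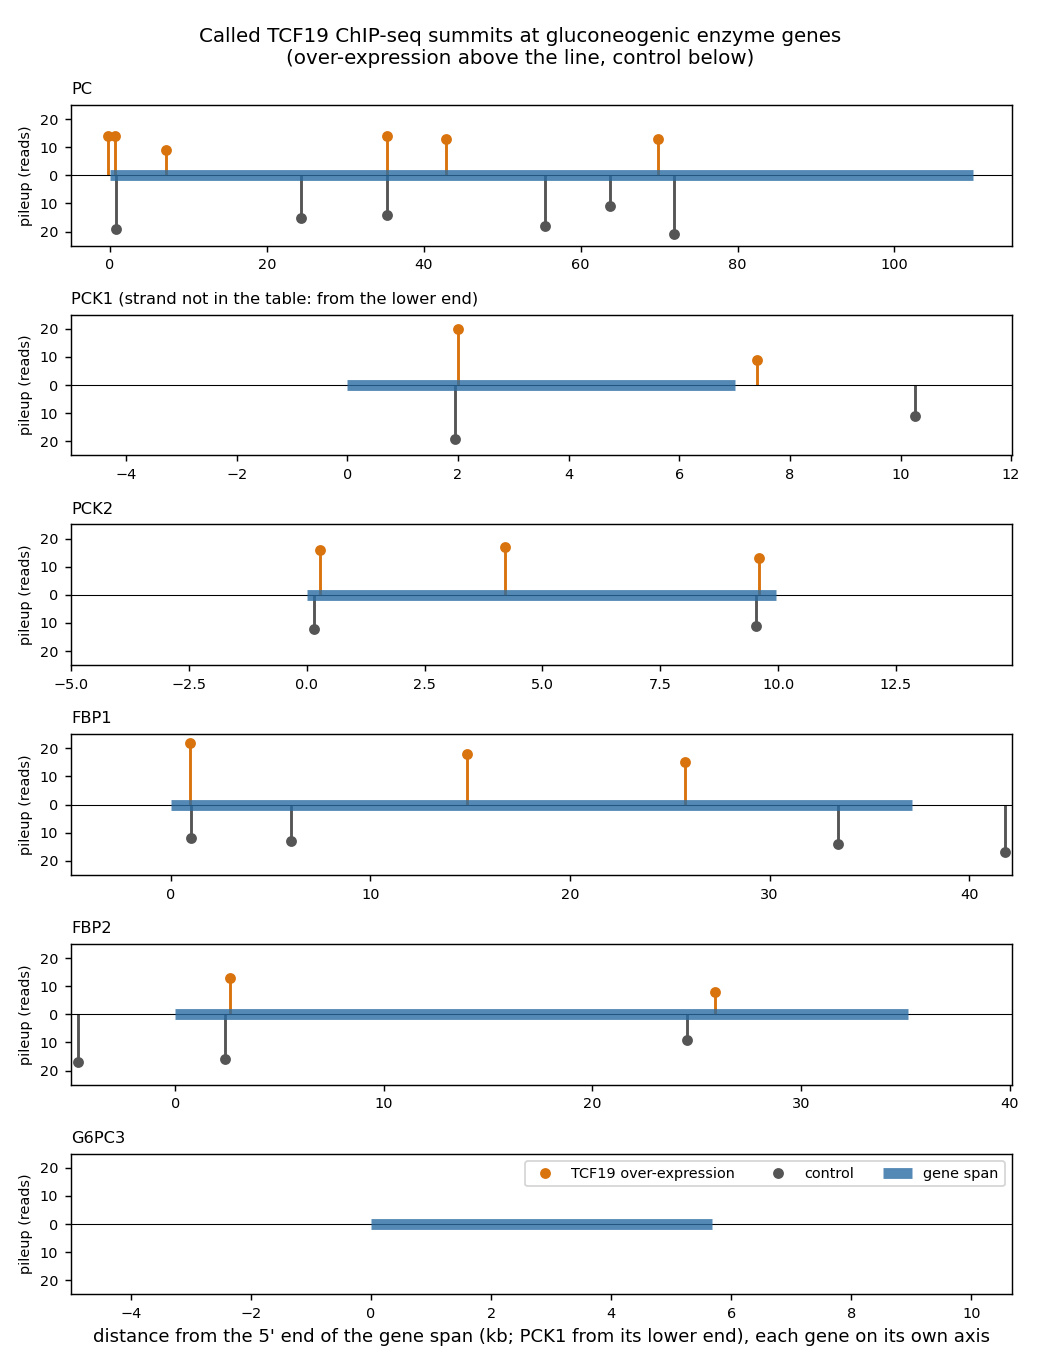
Summit pileup in reads (vertical axis) against distance from the 5′ end of each gene span in kb (for PCK1, whose strand was not in the table, from the lower end), with over-expression above the line, control below it and the gene span as a blue bar. No summit exceeds 22 reads, and the G6PC3 window holds none. PC, PCK1, PCK2 and FBP1 each have summits of both libraries within 200 bp of each other.

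Start regions were examined next, because peaks of the over-expression library lie close to gene ends more often over the whole list. RefSeq start positions on GRCh38.p14 were available for 5 of the 6 genes. For PCK1 both ends of the span were used. A summit within 1000 bp of a start was called at 3 genes in control (PC, PCK2 and FBP1) and at the same 3 with over-expression. With over-expression PCK1 was also counted, making 4, by a summit beyond the upper end of its span. Its strand was not listed, so that summit is not known to lie at a start. Over all protein-coding genes the shares were 53.5% and 64.9%. Start peaks in both libraries were found at 3 of the 6 genes and at 48.8% of all genes. They were seen with over-expression alone at 1 of 6 (PCK1, by its span end) against 16.1%, and in control alone at 0 of 6 against 4.75%. Restricted to genes with listed starts, each library had 3 of 5, against 54.4% in control and 66.4% with over-expression. The control count rested on weak calls. At a −log10 q of at least 2 control kept 1 of 6 genes and over-expression 4, PCK1 among the 4 by its span end. The shares of all genes were 49.5% and 62.7%. With the control list shortened to the length of the over-expression list, by fold, control had 0 of 6, against 34.2% of all genes.

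The 250 bases before the start are shown for the 3 genes with start peaks in both libraries and for G6PC3, which had none. Where several starts are listed, as for PC and G6PC3, the outermost was used. They are RefSeq sequences of GRCh38.p14, read 5′ to 3′ on the gene's strand: PC at chr11:66958384-66958633 (minus strand), PCK2 at chr14:24094061-24094310 (plus), FBP1 at chr9:94639519-94639768 (minus) and G6PC3 at chr17:44070423-44070672 (plus). Capitals mark matches on either strand to 7 motifs: TATAAA (the TATA box), CCAAT (bound by NF-Y), GGGCGG (bound by the SP family), TGACGT (the core of the cyclic AMP response element), GTAAACA (the core of a FOXO site), CACGTG (the E-box of basic helix-loop-helix factors) and GATGCAA (found in composite sites of ATF4 and its partners).
PC: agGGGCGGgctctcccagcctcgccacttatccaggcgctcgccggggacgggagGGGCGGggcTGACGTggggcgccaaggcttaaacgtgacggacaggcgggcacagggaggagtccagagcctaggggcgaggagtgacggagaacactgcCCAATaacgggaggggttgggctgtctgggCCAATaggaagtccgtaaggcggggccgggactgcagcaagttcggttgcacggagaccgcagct
PCK2: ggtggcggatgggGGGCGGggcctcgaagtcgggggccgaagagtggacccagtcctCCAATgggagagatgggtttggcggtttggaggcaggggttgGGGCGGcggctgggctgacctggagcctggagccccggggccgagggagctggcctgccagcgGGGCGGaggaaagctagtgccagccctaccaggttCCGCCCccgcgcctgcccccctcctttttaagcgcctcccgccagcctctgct
FBP1: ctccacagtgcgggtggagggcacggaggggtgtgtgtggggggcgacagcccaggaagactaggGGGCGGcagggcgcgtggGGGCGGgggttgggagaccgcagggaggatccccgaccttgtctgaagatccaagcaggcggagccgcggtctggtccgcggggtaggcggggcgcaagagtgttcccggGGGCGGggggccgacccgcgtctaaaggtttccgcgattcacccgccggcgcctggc
G6PC3: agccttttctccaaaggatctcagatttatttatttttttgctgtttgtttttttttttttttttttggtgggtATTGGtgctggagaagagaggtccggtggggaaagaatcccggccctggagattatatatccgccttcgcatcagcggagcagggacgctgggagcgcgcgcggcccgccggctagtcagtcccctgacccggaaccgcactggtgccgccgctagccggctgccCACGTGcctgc

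GGGCGG was present 2 times in PC, 4 times in PCK2 and 3 times in FBP1, and not in the G6PC3 or FBP2 stretch. It occurs in 42.6% of the 35116 RefSeq start sequences of this length. CCAAT was found in PC, PCK2 and G6PC3 and occurs in 32.0% of them. The cyclic AMP element core TGACGT was found in PC, 186 to 181 bases before the start, and occurs in 7.1%. The E-box CACGTG, which reads the same on both strands, was found in G6PC3, 11 to 6 bases before the start, and occurs in 6.34%. The TATA box (10.7% of start sequences), the FOXO core (2.98%) and GATGCAA (2.05%) were in none of the 5 stretches. G and C made up 67.6% of the PC stretch, 71.6% of PCK2 and 72.8% of FBP1, against 55.6% for G6PC3, 54.8% for FBP2 and a median of 58.0%. CpG pairs numbered 21, 17 and 26 in the first 3 genes and 18 in G6PC3, but 3 in FBP2, where the median was 11. The 3 genes with start peaks in both libraries were thus the richest in G and C of the 5. These matches are descriptions of the letters and not of bound factors.

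PC lies on chromosome 11 from 66848420 to 66958383 and is the longest of the genes, with a window that held 6 summits in each library. Genes of similar window length (within 20%) had a median of 9 summits in control and 6 with over-expression. PC has 3 listed starts, at 66906034, 66907953 and 66958383, and only the last had a summit within 1000 bp. At that start, control had 1 summit at 66957626, 757 bp inside the gene, with 19 reads (11.4 to 29.7). The over-expression library had a summit 84 bp from it, at 66957710, with 14 reads (7.65 to 23.5). It had another at 66958636, 253 bp before the start, also with 14 reads. The interval around that summit covered all 250 bases of the PC sequence shown, whereas the nearest control interval stopped 492 bp short of the start. An equal occupancy at 66958636 would have been called in control with a probability of 0.911.

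Inside PC the libraries shared 1 summit, at 66923094 in control and 66923118 with over-expression, 24 bp apart and with 14 reads in each. The highest fold in PC in each list, by the authors' values, was 5.6 at 66933997 in control (15 reads) and 5.21 at the shared summit with over-expression. The control summit at 66933997 had no over-expression counterpart, although an equal occupancy would have been called with a probability of 0.98. In the other direction, the over-expression summit at 66915609 (13 reads, 6.92 to 22.2) had no control counterpart at a probability of 0.953. The highest pileup, 21 reads at 66886444 in control, stood in a stretch of high density, 254 reads in 10 kb or 4.38 times the genome average. Each library thus had summits of its own in the body of the gene. The window also holds the coding genes TOP6BL, RCE1 and LRFN4, and no PC summit lay within 1000 bp of another coding gene's listed start.

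PCK1, on chromosome 20 from 57561110 to 57568121, held the peak of highest fold at these genes within the over-expression list. In control the highest was in PC. The PCK1 peak was present in both libraries. Its control summit, inside the gene at 57563046, had 19 reads (11.4 to 29.7). Its over-expression summit at 57563103 had 20 reads (12.2 to 30.9). The summits were 57 bp apart and lay 1936 and 1993 bp from the lower end of the span, outside the 1000 bp window. Scaled to depth, the over-expression pileup was 1.18 times that of control (exact conditional binomial interval 0.597 to 2.33). The pileups therefore did not differ beyond counting error.

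The authors' fold at this PCK1 peak ranked at percentile 96.1 of the over-expression list (6.44) and at 41.8 of the control list (3.63). The pileups ranked at percentiles 87.2 and 91.1. The surrounding 10 kb held 165 reads (141 to 192) in control and 82 (65.2 to 102) with over-expression, the summit's own reads included. The depth-scaled ratio of these densities was 0.556 (0.422 to 0.73). Among all 59693 paired summits, 0.442% had a ratio as low, and the median was 1.0. This value was singled out after it was seen.

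The other PCK1 summits were not shared. With over-expression a summit of 9 reads (4.12 to 17.1) lay at 57568517, 396 bp beyond the upper end of the span, and this is the summit that placed PCK1 among the genes with a start or end peak. It would have been called in control at equal occupancy with a probability of 0.787. In control a summit of 11 reads (5.49 to 19.7) lay at 57571364, 3243 bp beyond the same end. Both stand in the flank, and their intervals did not overlap.

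PCK2, on chromosome 14 from 24094171 to 24104125, had peaks at its start and at its far end in both libraries. Its listed start is at 24094311. The control summit stood 7 bp downstream of it, at 24094318, with 12 reads (6.2 to 21.0). The over-expression summit stood 140 bp downstream, at 24094451, with 16 reads (9.15 to 26.0). The depth-scaled ratio was 1.49 (0.663 to 3.46). The control interval covered 121 of the 250 bases of the PCK2 sequence shown and the over-expression interval 69. The control call had a −log10 q of 1.39, close to the limit of the list at 1.30106, and an equal occupancy seen in control would have been called with over-expression with a probability of 0.387.

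At the far end of PCK2 control had 11 reads (5.49 to 19.7) at 24103704. The over-expression summit at 24103764 had 13 reads (6.92 to 22.2), for a depth-scaled ratio of 1.32 (0.547 to 3.26). Between these, position 24098377 inside the gene had a summit of 17 reads (9.9 to 27.2) with over-expression alone, which control would have called at equal occupancy with a probability of 0.94. All PCK2 summits lie inside the span of NRL as well, a retinal transcription factor gene, and the start summits lie within 1000 bp of a listed NRL start. These peaks cannot be assigned to either gene.

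FBP1, on chromosome 9 from 94603133 to 94640263, had the largest difference in pileup among the paired summits. The control summit stood at 94639230 with 12 reads (6.2 to 21.0) and the over-expression summit 73 bp away, at 94639303, with 22 reads (13.8 to 33.3). They lay 288 and 215 bp inside the gene from its listed start at 94639518. The depth-scaled ratio was 2.05 (0.973 to 4.55), an interval that includes 1. The interval of the over-expression peak was 905 bp wide and covered all 250 bases of the FBP1 sequence shown. The control interval was 329 bp wide and ended 53 bp inside the start, so that it covered none of them. The local densities were alike, at 161 and 141 reads in 10 kb (depth-scaled ratio 0.981, 0.777 to 1.24).

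Whether FBP1 counts as a start peak of both libraries depends on which end is used. The span of FBP1 reaches 745 bp beyond the listed start, and from that upper end the over-expression summit lay 960 bp and the control summit 1033 bp away, just inside and just outside 1000 bp. Counted at both ends of the spans, an alternative added after the data were seen, control had start or end peaks at 2 of the 6 genes and over-expression at 4, against 54.6% and 64.8% of all genes.

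In the body of FBP1 no summit was shared. Over-expression had 15 reads (8.4 to 24.7) at 94614515 and a further summit of 18 reads (10.7 to 28.4) at 94625410. Control would have called equal occupancies there with probabilities of 0.971 and 0.98. Control had summits of 14 reads at 94606822 and 13 reads at 94634231, for which the probabilities in the other direction were lower, 0.595 and 0.818. A control summit of 17 reads (9.9 to 27.2) at 94598460 lies between FBP1 and FBP2, inside the 5 kb flanks of both. It was counted once in the merged windows, but for each of the genes in values taken gene by gene. It is the highest control pileup in both windows.

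FBP2, the form best known from muscle, lies next to FBP1 on the same strand, from 94558720 to 94593824, with 9308 bp between the genes. It had no start peak in either library. The nearest summits inside the gene stood 2381 bp from the start in control, with 16 reads (9.15 to 26.0), and 2610 bp in the over-expression library, with 13 reads (6.92 to 22.2). Their intervals overlapped by 262 bp, but the summits were 229 bp apart and so were not paired at 200 bp. Both were among the weaker calls, with folds of 2.5 and 2.37 at percentiles 3.51 and 1.4 of their lists. Deep in the gene each library had a low summit of its own, 9 reads at 94569305 in control and 8 reads at 94567928 with over-expression.

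G6PC3, on chromosome 17 from 44070673 to 44076344, had no called summit in its window of 15.7 kb. Of all protein-coding genes 8.22% had none in either library, and of the 3491 genes of similar window length, itself included, 18.8% had none. The nearest summits were 24202 bp below the gene in control (13 reads, 6.92 to 22.2) and 10644 bp below it with over-expression (15 reads, 8.4 to 24.7), both inside the span of LSM12. Above the gene they were 63600 and 23182 bp away, the latter inside HDAC5, a histone deacetylase gene. At the genome-average density a pileup of 6 reads would have been called in either library. At the density around these neighbours 9 to 12 reads would have been needed. The density at G6PC3 itself is not known from the lists, so the pileup needed there is not known either.

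The libraries were then set side by side over all windows. Of the 16 control summits 7 lay in intervals that overlapped an over-expression interval, and 7 of the 16 over-expression summits overlapped a control interval, 43.8% of each (exact binomial interval 19.8 to 70.1). Over the whole lists 43.0% of control and 67.4% of over-expression intervals overlapped. Of the 9 summits in each library with no overlap, 1 in control and 3 with over-expression stood where the other library would have called an equal occupancy with a probability of at least 0.95. Over the whole lists 13.9% of the control summits without overlap and 41.2% of those with over-expression met this limit. At the 6 genes these were the PC summits at 66933997 and 66915609 and the over-expression summits inside FBP1 at 94614515 and 94625410.

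Summed over the 6 pairs of summits no more than 200 bp apart, the pileups came to 87 reads in control and 99 with over-expression. The depth-scaled ratio was 1.27 (0.946 to 1.72), a log2 ratio of 0.35. The depth-scaled ratio was above 1 at 5 of the 6 pairs, against 61.0% of all pairs. At 1 of the 5, inside PC, it was above 1 only through the scaling, since both libraries had 14 reads. The exception was the PC start pair at 0.825 (0.383 to 1.74). None of the 6 intervals excluded 1. Over all 59693 pairs the ratio of summed pileups was 1.11, 1.73% had an interval above 1 and 0.211% an interval below 1. The plot of paired summits shows overlapping counting intervals for every pileup, and densities that separate at PCK1 and at the PC start.

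**Figure D2:**
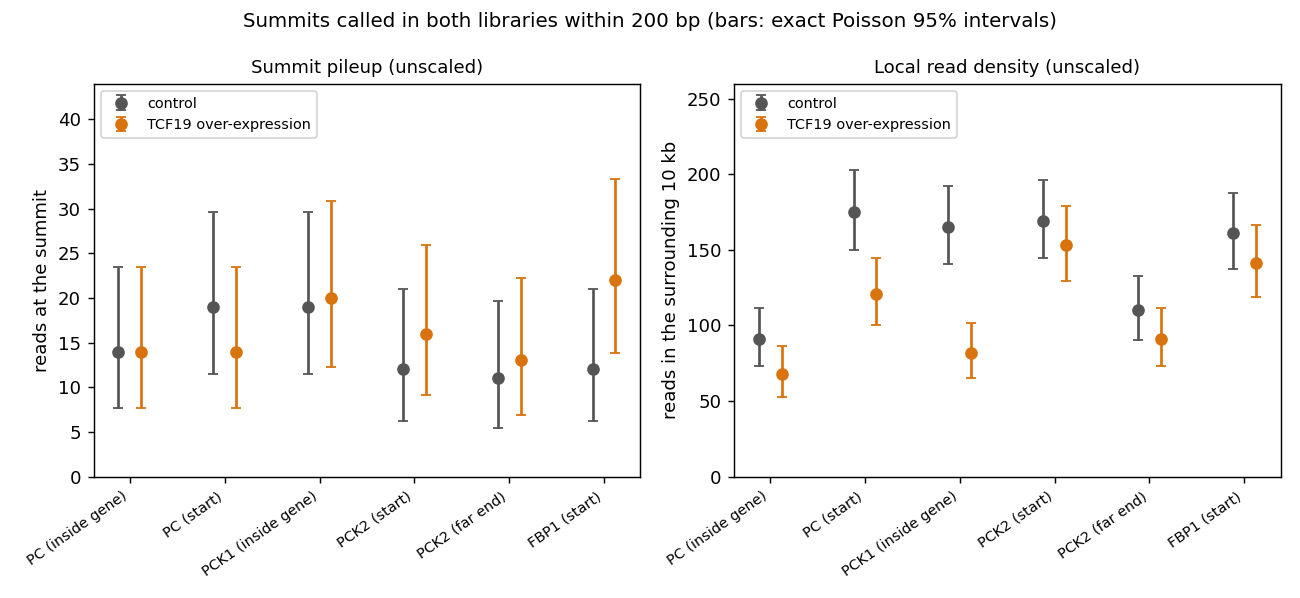
Reads at the summit (left) and reads in the surrounding 10 kb (right) for the 6 summits called in both libraries within 200 bp, before depth scaling, with exact Poisson 95% intervals as bars. The pileups differ most at FBP1, 12 against 22 reads with overlapping intervals, while the density at PCK1 is 165 in control and 82 with over-expression.

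The density of reads in 10 kb around the paired summits was also lower at the PC start with over-expression, 175 against 121 reads or 0.774 after depth scaling (0.609 to 0.982). At the other 4 pairs its interval included 1. Densities at member summits were above the genome average in most places, with a median of 2.79 times in control and 2.21 times with over-expression. This was higher than is usual for called summits. Over the whole lists the median was 70 reads per 10 kb in control and 82 with over-expression, against genome averages of 57.96 and 51.76. Their part in which peaks were called was not tested.

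Other genes of glucose production and breakdown were counted in the same way. Of the remaining genes of glucose-6-phosphate release, G6PC1 and G6PC2, the forms of liver and islet, had no start peak in either library. SLC37A4, which carries glucose-6-phosphate into the endoplasmic reticulum, had a start peak with over-expression alone (23 reads, 14.6 to 34.5), and control would have called it at equal occupancy with a probability of 0.999. Start peaks were therefore found at 0 of these 3 genes in control and at 1 with over-expression.

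The 12 enzymes that gluconeogenesis shares with glycolysis had start peaks at 4 genes in control and 8 with over-expression. Over-expression alone had them at ALDOA and ALDOC (aldolases), GAPDH and TPI1. GAPDH had 34 reads (23.5 to 47.5) and a calling probability in control of 0.997. ALDOA had 21 reads (13.0 to 32.1) at a probability of 0.932, and ALDOC 12 (6.2 to 21.0) at 0.919. The 9 irreversible glycolytic enzymes, which oppose the 6 genes described here, had start peaks at 4 in control and 6 with over-expression, where PKM and PKLR (pyruvate kinases) were seen alone with 19 (11.4 to 29.7) and 15 reads (8.4 to 24.7), at probabilities of 0.978 and 0.946. Their median highest pileup per gene was 18 reads in control and 20 with over-expression. For the 6 gluconeogenic genes these medians were 17 and 15.5, and over all protein-coding genes 16 and 18. A gene without a summit entered as 0, as G6PC3 did in both libraries and PFKL with over-expression. In the order PC, PCK1, PCK2, FBP1 and FBP2, the highest pileups were 21, 19, 12, 17 and 17 reads in control. With over-expression they were 14, 20, 17, 22 and 13 reads, so the lower median of 15.5 depended on the empty G6PC3 window.

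The enzymes of the 4 PFKFB genes set the level of a small molecule that regulates both pathways. Of these genes PFKFB3 had a start peak in control alone (16 reads, 9.15 to 26.0), at a calling probability of 0.669 with over-expression. None of the 4 had one with over-expression. Of 15 genes of substrate supply, 10 had start peaks in control and 14 with over-expression, with BTD (biotin recycling, which pyruvate carboxylase needs), GOT2 and LDHA among those in over-expression alone, at probabilities of 0.99, 0.984 and 0.982. The BTD summit of 13 reads (6.92 to 22.2) also lies at a start of HACL1. Of 12 regulators, 6 and 11 had start peaks. ATF4 (22 reads, 13.8 to 33.3), SIRT1 (17 reads, 9.9 to 27.2) and CEBPB (23 reads, 14.6 to 34.5) were seen with over-expression alone, at probabilities of 0.992, 0.966 and 0.955, and CHD4 had start peaks in both. Counts with over-expression exceeded those of control in 5 of these 6 lists, as over all genes, and the difference between lists was not tested.

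**Figure D3:**
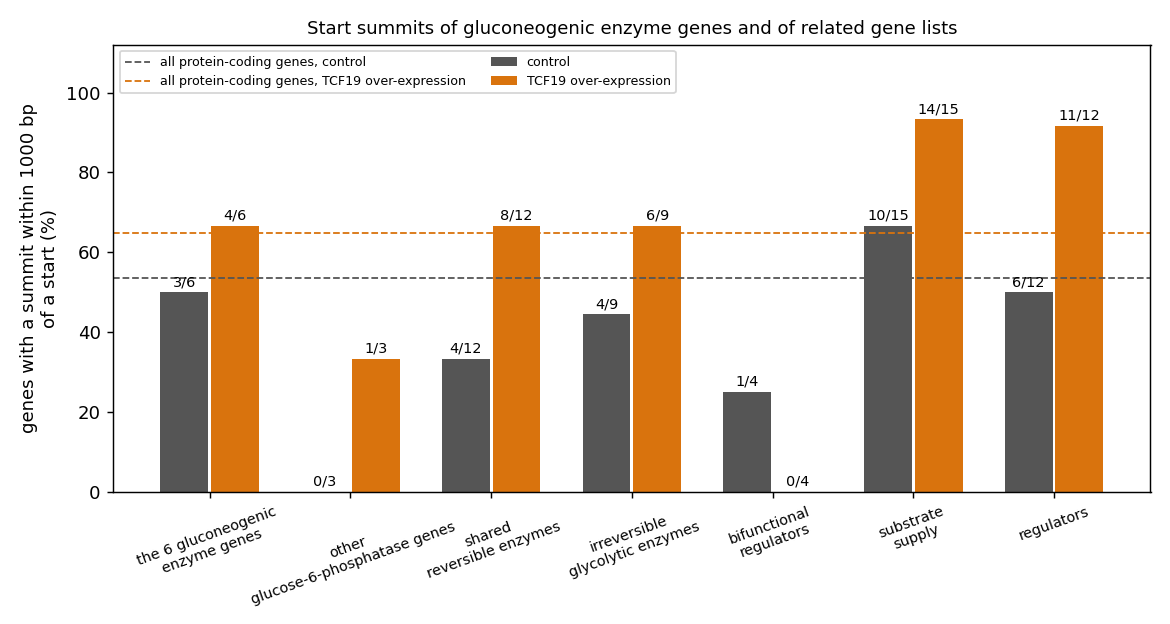
Share of genes with a summit within 1000 bp of a start (vertical axis, percent) for the 6 gluconeogenic enzyme genes and 6 related lists, with counts above the bars and dashed lines for all protein-coding genes. The gluconeogenic genes stand at 3 of 6 in control and 4 of 6 with over-expression (PCK1 by a span end), close to the dashed lines at 53.5% and 64.9%.

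Genes most like each member were found among coding genes of similar window length, by the distance over 4 values: the highest pileup and the number of summits in each library. COPS7A and FOXI1 had the same values as PCK1, 2 summits in each library with highest pileups of 19 and 20 reads. GCM2 and IGFBP3 had those of PCK2, with 2 and 3 summits and highest pileups of 12 and 17, and MTG1 had those of FBP1, with 4 and 3 summits and 17 and 22 reads. The 17 control reads of FBP1 are those of the summit between FBP1 and FBP2. For PC the nearest was RAB3GAP2 (distance 0.138) and for FBP2 TBC1D21 (0.0544). G6PC3 was level with 655 of 3490 genes that also had no summit.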

How the data were processed

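ChIP-seq of TCF19 was analysed from 1 deposited peak list per library. The submitters' processing notes name BWA 0.7.12, MACS2 2.1.0 and hg38. For parameters, and for whether an input was sequenced, the answer is not given in the sources used here. Fold enrichment, the ratio of a summit to its local background, was computed by the authors' peak caller and is compared only inside a list. The deposited −log10 p and −log10 q values were used to recover pileups and to set stricter thresholds. The deposited score was not used.

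Whole-number pileups were solved from fold and −log10 p, with a misfit of at most 0.001, at 99.997% of control and 99.996% of over-expression summits, after a check on simulated data. Above the floor, the backgrounds equalled whole reads per 10 kb (tolerance 0.05) at fragment lengths of 273 and 276 bp, so they look like counts of the ChIP library itself, not corrected for input. The floor gave the genome average. Coordinates are printed from 1.

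Gene spans were RefSeq spans on GRCh38.p14, without exons, and starts came from a RefSeq start table that held 15812 of the 19974 genes; for the rest both ends of the span were used. Start positions therefore mix both kinds. Summits were paired when mutually nearest within 200 bp. Calling probabilities scaled a summit's pileup and density to the other library and are approximate, since summits are local maxima. Ratios carry exact conditional binomial intervals, pileups exact Poisson intervals. PCR copies were not known, so intervals cover counting error only.

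The members and the gene lists were chosen with earlier results of these data known. All 6 members were named; from 6 lists, up to 3 genes per library with a start summit in that library alone, by highest fold; and up to 2 genes most like each member. Groups came from the genotype label. Alternatives covered flank, start distance, q threshold, list length, overlap rule, pairing distance and depth scale. Python 3.11.15 with numpy 2.4.6, scipy 1.17.1 and pandas 2.3.3 was used.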

Additional observations from a re-analysis of the deposited data

How the results depend on the processing

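Of 46 alternative values, 40 stayed within the limits set, which were 1.5 times for a count and the counting interval for the log2 ratio. Of the others 6 moved, all of them control counts, and 0 reversed. When each list was limited to 112212 summits by fold, control had summits at 3 of the 6 genes, 5 summits in the windows and start peaks at 0 genes. The over-expression list was not shortened by this and kept 5, 16 and 4. These values could not change, although they are among the 40. The same holds for the control start count without PCK1, because PCK1 had no start peak in control. At a −log10 q of at least 2, control had 1 gene with a start peak and over-expression 4, with PCK1 counted by its span end. At 3 these counts were 1 and 3, with 9 summits in the windows in control and 11 with over-expression. With the start distance widened to 2 kb, each library had 4 genes with a start peak. The shared PCK1 summits, 1936 and 1993 bp from the lower span end, then lay within it. At the alternative distance below 1000 bp, control had 2 such genes and over-expression 4, again with PCK1 by its span end. The log2 ratio over paired summits was 0.0709 to 0.309 under the other depth scales and pairing distances, against 0.35, and every interval included 0. No paired analysis was possible because each group has 1 library and the labels carry no replicate numbers. Pileups of 8 to 22 reads limit what these lists can show: no paired pileup at the 6 genes could be told apart between the libraries.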
